A study of Mus musculus with 22 samples.

Results

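The genes described here encode the nuclear subunits of the mitochondrial respiratory chain and of ATP synthase, in striatum of Fmr1 mutant and wild-type mice. They were taken by symbol: names starting with Ndufa, Ndufb, Ndufc, Ndufs, Ndufv, Uqcr, Cox4 to Cox8 or Atp5, with Sdha, Sdhb, Sdhc, Sdhd and Cyc1 added and Ndufaf, "-ps" and Gm names left out. This gave 90 of the 55341 genes in the count tables, with 41 named for complex I, 4 for complex II, 9 for complex III, 19 for complex IV and 17 for complex V, the ATP synthase. Of these, 86 were annotated as protein coding and 4 (Cox6c2, Ndufa11b, Ndufb4c and Ndufs6b) as processed pseudogenes. All animals carried EGFP-tagged Rpl10a, a ribosomal protein, in medium spiny neurons that express the dopamine receptor Drd1 (D1 neurons), so that ribosome-bound mRNA of these neurons could be pulled down from striatal lysate. The groups were the pulldown of 5 mutant animals (KO IP), the pulldown of 6 wild-type animals (WT IP), and the lysate kept before the pulldown from the same animals, which the labels call Total (KO input and WT input). The labels describe the mutants as a model of fragile X syndrome. The allele, the transgene's driver line, strain, age and litter are not given in the sources used here. The input holds every cell type of the striatum, and the pulldown is meant to hold only what the tagged ribosomes carry. Some marker mRNA of other cell types was found in it as well, as given below.

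Complexes I and II pass electrons from NADH and succinate to ubiquinone, complex III passes them on to cytochrome c and complex IV to oxygen. Complexes I, III and IV pump protons across the inner mitochondrial membrane, and complex V uses that gradient to make ATP, on which neurons depend for ion pumping and synaptic transmission. Apart from a few core subunits made inside the mitochondrion, the subunits are translated from nuclear mRNAs in the cytosol and imported, which is why their mRNAs can be found on tagged cytosolic ribosomes.

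Libraries held 9375611 to 82376192 counted reads in the pulldown and 25164548 to 43276230 in the input. Mitochondrial rRNA took 0.420 to 0.904% of reads in the pulldown and 25.1 to 53.2% in the input. Fmr1, the mutated gene, had 8.16 to 11.3 CPM (counts relative to the library's total after TMM scaling) in KO IP and 70.1 to 108 CPM in WT IP, and 11.1 to 15.0 CPM in KO input against 59.7 to 72.5 CPM in WT input. The 10 D1 markers summed to 2262 to 2416 CPM in KO IP and 2152 to 2733 CPM in WT IP, against 746 to 1047 CPM in KO input and 917 to 1268 CPM in WT input. The 6 D2 markers in the counts fell to 48.0 to 77.9 CPM in KO IP, against 500.3 to 891 CPM in KO input. In WT they were at 46.8 to 80.8 CPM in IP and 776 to 1005 CPM in input. Astrocyte markers were at 294 to 400 CPM in KO IP and 334 to 385 CPM in WT IP, against 1074 to 1228 CPM in KO input and 954 to 1139 CPM in WT input. Oligodendrocyte markers were at 171 to 246 CPM in KO IP and 149 to 219 CPM in WT IP, against 3057 to 3836 CPM in KO input and 2654 to 3535 CPM in WT input. So the pulldown also held marker mRNA of other cell types. Cortical excitatory markers stood apart in KO animals 3 and 9 (155 and 272 CPM in IP, other KO animals up to 17.2 CPM) and in WT animals 1 and 12 (100.3 and 276 CPM in IP, other WT animals up to 18.2 CPM). The genotype counts and medians are also given without these 4 animals.

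Every complex was well represented in the D1 pulldown. The 83 subunit genes that passed the filter on low counts in the pulldown summed to 11570 ± 694 CPM in KO IP (SD, n = 5) and 10600 ± 681 CPM in WT IP (SD, n = 6), against 12438 ± 677 CPM in KO input and 11372 ± 690.3 CPM in WT input. Levels per kilobase of the principal transcript, the scale on which genes can be set beside each other, were, over the 22 libraries, highest for Cox6c, Cox6a1 and Ndufa4. Cox6c, a small subunit of complex IV, averaged 647 ± 55.6 CPM per kb in KO IP and 606 ± 68.8 in WT IP. Ndufa4 averaged 547 ± 38.0 CPM per kb in KO IP and 485 ± 26.0 in WT IP. Its symbol names complex I, but the protein is now assigned to complex IV. At the low end were Ndufa4l2 (0.0447 CPM per kb in KO IP and 0.0420 in WT IP), Cox4i2 and Cox8c. Cox8c, an isoform best known from testis, had no read in any pulldown library and 9 reads in a single input library, so it was not tested.

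**Figure D1:**
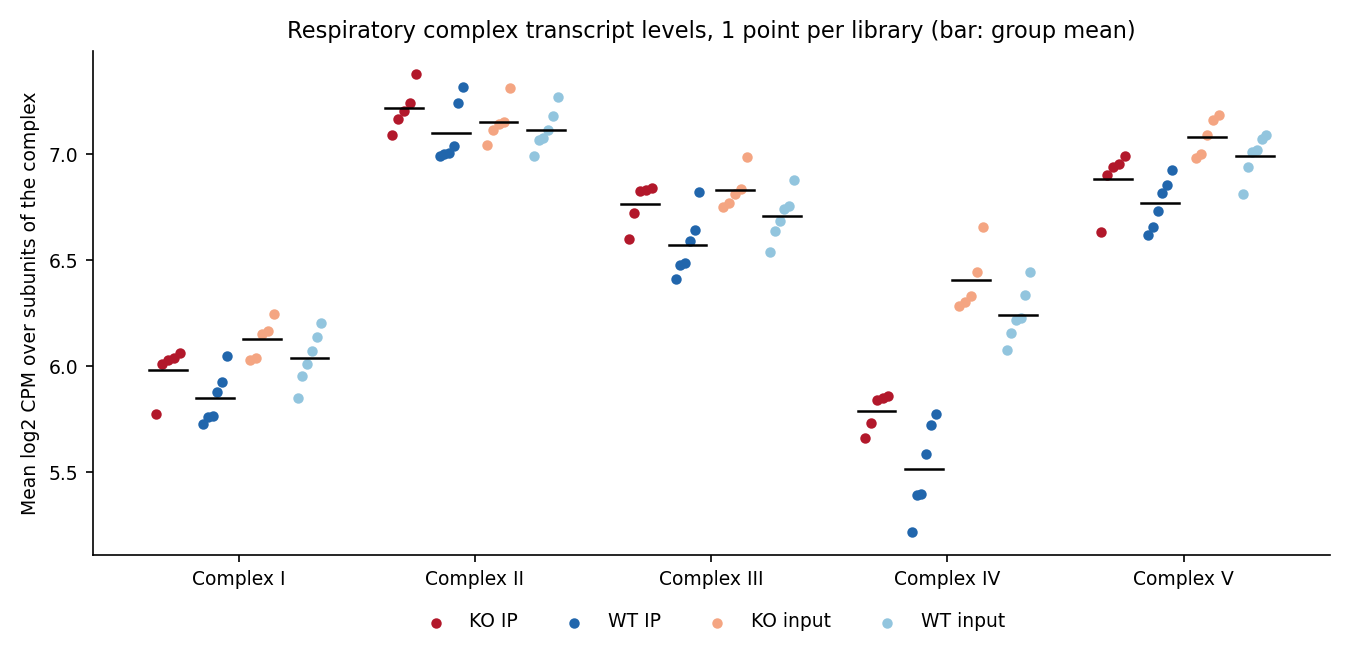
Mean log2 CPM over the subunit genes of each complex (vertical axis) by complex, with 1 point per library for KO IP, WT IP, KO input and WT input and a bar at the group mean. Complex IV lies lowest in the pulldown relative to the input, and KO means lie above WT means in each complex and assay. The complex IV mean also holds Cox6a2 and Cox7b2, at few reads in the pulldown, and the pseudogene Cox6c2.

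Taken over the subunit genes of a complex, the mean log2 CPM in the pulldown was 5.98 ± 0.12 in KO and 5.85 ± 0.12 in WT for complex I, and 7.22 ± 0.11 in KO and 7.10 ± 0.14 in WT for complex II (SD, n = 5 and 6). It was 6.76 ± 0.10 in KO and 6.57 ± 0.15 in WT for complex III, 5.79 ± 0.09 in KO and 5.51 ± 0.22 in WT for complex IV, and 6.88 ± 0.14 in KO and 6.77 ± 0.12 in WT for complex V. The plot of these means by library shows overlap of KO and WT in all 5 complexes. Each gene weighs equally, so the complex IV mean also depends on Cox6a2 and Cox7b2, at few reads per library, and on the pseudogene Cox6c2.

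Complex IV has pairs of subunit isoforms, a widely expressed form and a form best known from muscle, lung or testis. In the pulldown nearly all of the mRNA was of the widely expressed form. Cox6a1 averaged 509 ± 43.9 CPM per kb in KO IP and 422 ± 29.0 in WT IP. Its muscle counterpart Cox6a2 averaged 0.702 ± 0.604 CPM per kb in KO IP and 0.490 ± 0.230 in WT IP. In the input, Cox6a2 was at 9.44 ± 2.38 CPM per kb in KO and 7.61 ± 1.38 in WT. By read counts, Cox6a2 had 2 to 31 reads per library in KO IP and 4 to 47 in WT IP, against 110 to 299 in KO input and 106 to 200 in WT input, and no pulldown library overlapped the input in CPM. Its log2 fold change of IP over input was -3.78 ± 0.50 in KO and -3.93 ± 0.46 in WT (SE, edgeR adjusted p = 4.43e-07 and 5.96e-08).

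The other muscle, lung and testis forms were close to absent from the pulldown. Cox7a1, the muscle form beside Cox7a2, had 16 reads over the 5 KO IP libraries and 7 over the 6 WT IP libraries, against 115 in KO input and 154 in WT input. Cox8b, the muscle form beside Cox8a, had 1 read in KO IP and 12 in WT IP, 11 of them in a single library, against 66 in KO input and 70 in WT input. Cox6b2, a testis form, had 11 reads in KO IP and 7 in WT IP, against 155 in KO input and 166 in WT input. Cox4i2, best known from lung, had 4 reads in KO IP and 1 in WT IP, against 148 in KO input and 60 in WT input. Ndufa4l2, known as induced by low oxygen, had 4 reads in KO IP and 8 in WT IP, against 80 in KO input and 118 in WT input. These 5 genes, Cox8c and the pseudogene Ndufa11b are the 7 genes left out of the pulldown fit by the filter. Cox7b2, a testis form, was the exception, with 152 reads in KO IP and 115 in WT IP and 251 in each of KO input and WT input. Its IP over input did not pass with edgeR in either genotype. Its WT value passed with the animal as a block (-1.95, edgeR adjusted p = 0.0126), with limma-voom (-2.26, adjusted p = 0.00655) and without WT animal 4 (-1.88, edgeR adjusted p = 0.0467). In bulk lysate and in a pulldown, fewer cells of a type and less RNA per cell cannot be told apart.

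**Figure D2:**
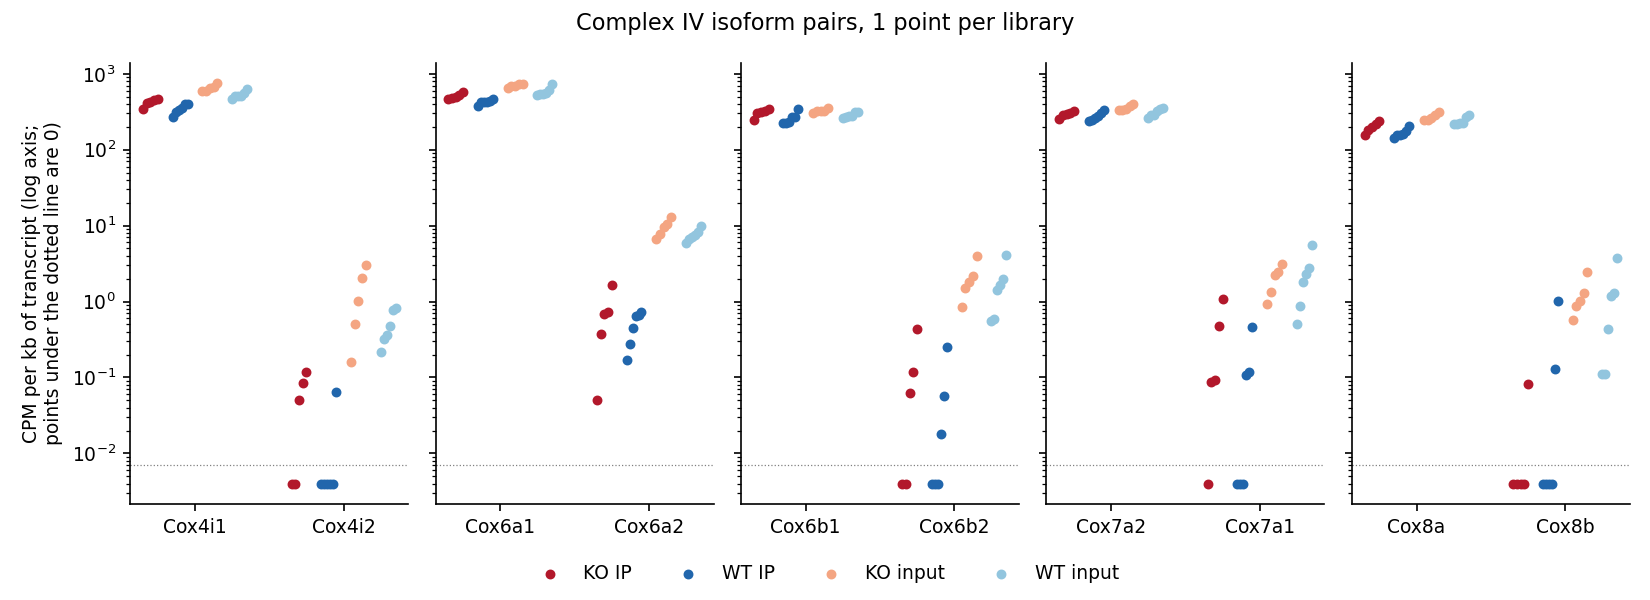
Level in CPM per kb of transcript (log axis, points under the dotted line are 0) of 5 pairs of complex IV isoforms, with the widely expressed gene on the left of each panel and its isoform on the right. Each point is a library, grouped as KO IP, WT IP, KO input and WT input, and the right-hand genes drop further in the pulldown than in the input.

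Promoters are printed for Cox7a2 and Cox8a and for their muscle forms Cox7a1 and Cox8b, which were close to absent from the pulldown, and for Cox6a1, which is among the highest of the genes per kilobase. Of the 90 genes, 69 matched an entry in the RefSeq promoter table (GRCm38.p6, 250 bases before to 50 after the start). Capitals mark matches on either strand to 5 motifs: GCGCA and GCGC parted by any 1 base for NRF1 and CCGGAAG for ETS factors such as GABP, both known regulators of respiratory chain genes, AAGATGGC for YY1, GGGCGG for SP1 and TATAAA for a TATA box. Overlapping matches run together. Each line runs 5′ to 3′ on the gene's strand.
Cox6a1 (chr5:115348909-115349208, minus strand): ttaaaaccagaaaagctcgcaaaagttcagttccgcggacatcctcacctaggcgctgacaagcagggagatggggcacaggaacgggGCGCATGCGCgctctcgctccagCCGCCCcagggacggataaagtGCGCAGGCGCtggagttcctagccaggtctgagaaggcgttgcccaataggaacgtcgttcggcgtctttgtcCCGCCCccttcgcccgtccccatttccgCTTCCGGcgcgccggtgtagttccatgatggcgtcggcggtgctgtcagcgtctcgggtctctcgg
Cox7a2 (chr9:79759804-79760103, minus strand): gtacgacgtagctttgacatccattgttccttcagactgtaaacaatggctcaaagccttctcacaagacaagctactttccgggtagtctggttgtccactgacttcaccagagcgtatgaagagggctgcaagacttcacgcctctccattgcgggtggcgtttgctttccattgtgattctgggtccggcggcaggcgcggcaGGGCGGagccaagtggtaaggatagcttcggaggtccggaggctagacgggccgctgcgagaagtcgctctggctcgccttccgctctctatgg
Cox7a1 (chr7:30183921-30184220, plus strand): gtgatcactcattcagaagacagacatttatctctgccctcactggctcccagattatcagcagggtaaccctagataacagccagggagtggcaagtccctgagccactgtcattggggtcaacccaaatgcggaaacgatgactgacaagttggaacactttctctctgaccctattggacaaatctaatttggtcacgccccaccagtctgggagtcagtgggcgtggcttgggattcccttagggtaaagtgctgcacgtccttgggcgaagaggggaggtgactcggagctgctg
Cox8a (chr19:7217567-7217866, minus strand): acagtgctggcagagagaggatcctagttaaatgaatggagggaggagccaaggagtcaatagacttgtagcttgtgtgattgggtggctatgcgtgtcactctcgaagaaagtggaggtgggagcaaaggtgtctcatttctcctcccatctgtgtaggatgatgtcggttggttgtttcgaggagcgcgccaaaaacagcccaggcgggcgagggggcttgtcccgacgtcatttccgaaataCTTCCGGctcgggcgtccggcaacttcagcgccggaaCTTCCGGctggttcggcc
Cox8b (chr7:140900397-140900696, minus strand): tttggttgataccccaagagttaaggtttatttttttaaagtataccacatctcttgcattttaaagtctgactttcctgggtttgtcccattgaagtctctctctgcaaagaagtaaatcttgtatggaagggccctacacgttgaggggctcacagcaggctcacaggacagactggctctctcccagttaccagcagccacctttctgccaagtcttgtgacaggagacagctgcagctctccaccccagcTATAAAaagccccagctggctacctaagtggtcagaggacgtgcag

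In these windows Cox6a1 held 2 NRF1 matches, 2 SP1 matches and 1 ETS match, Cox8a held 2 ETS matches and Cox7a2 an SP1 match alone. Cox8b held a TATA match alone and Cox7a1 none of the 5 motifs. Over the 69 promoters, 16 held an NRF1 match (23.2%, against 4.76% of all 27025 promoters), among them Sdha, Uqcrc1, Ndufa8 and Atp5g3. An ETS match was in 15 (21.7%, against 9.23% of all), a YY1 match in 9 (against 2.86% of all), an SP1 match in 29 (42.0%, against 36.2%) and a TATA match in 7 (10.1%, against 14.2%). Of the 4 complex IV isoforms of muscle and testis with an entry, 2 held a TATA match and none an NRF1 or ETS match, and of the 9 widely expressed complex IV genes with an entry, none held a TATA match, 1 an NRF1 match and 3 an ETS match. An SP1 match was in 2 of the 4 isoforms and in 4 of the 9 widely expressed genes. These are matches of letters and not measured binding.

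The pulldown was next set against the input within each genotype, which asks how far the subunit mRNAs are enriched on D1 ribosomes. Genes of the large catalytic subunits were higher in the pulldown and genes of many small subunits were lower, in KO and in WT animals. In KO animals, 6 of the 83 subunit genes that passed the filter in the pulldown were higher and 30 lower, where 20.9% and 26.4% of all 17311 genes were higher and lower. In WT animals, 6 were higher and 38 lower, where 21.8% and 27.8% of all genes were higher and lower. Another 5 genes were lower in each genotype (Cox4i2, Cox6b2, Cox7a1, Cox8b and Ndufa4l2), but they passed the filter only through the input, where they are high, so that they had to be lower. They bring the counts to 35 lower in KO and 43 in WT of the 89 tested. The WT call of Cox8b was lost in all 10 fits with 1 animal left out that tested it. It was also lost with DESeq2 and without the animals with cortical markers. The KO call of Cox7a1 was lost without KO animal 2, 9, 10 or 11, each left out alone. The median log2 fold change of the 83 genes was -0.19 in KO and -0.24 in WT, against -0.11 in each genotype over all genes tested. The shares and medians of all genes also hold genes that passed the filter only through the input, so they are not matched to the 83. With a filter of at least 1 CPM in at least 5 libraries, the median over all genes was -0.039 in KO and -0.043 in WT. That of the subunit genes was then -0.22 in KO and -0.27 in WT. Of the 83 genes, 27 were lower in KO and in WT, 5 were higher in both and 0 were called opposite ways. IP lay below input in all 11 animals for 18 of the 83 and above it in all 11 for 5, against 21.4% and 17.5% of all genes.

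The 5 genes higher in both genotypes were Atp5a1, Ndufs1, Ndufv1, Sdha and Uqcrc1. Atp5a1, the alpha subunit of the catalytic head of ATP synthase, had 1164, 1156, 1104, 1209 and 1189 CPM in KO IP, against 781, 784, 795, 830 and 746 CPM in KO input. Its lowest, median and highest WT values were 1128, 1170 and 1235 CPM in IP, against 712, 776 and 815 CPM in input. No IP library of either genotype overlapped the input, and the log2 fold change was 0.57 ± 0.05 (SE) in KO and 0.60 ± 0.05 in WT (edgeR adjusted p = 2.45e-09 and 1.15e-10). Ndufs1, the largest iron-sulfur subunit of complex I, was 0.54 ± 0.07 higher in KO IP than in KO input and 0.51 ± 0.06 higher in WT (log2, adjusted p = 1.82e-07 and 8.85e-08). It had 142, 158, 149, 152 and 150 CPM in KO IP, against 94.8, 100.3, 106, 114 and 101 CPM in KO input. The 5 genes whose IP lay above the animal's own input in all 11 animals were Atp5a1, Ndufs1, Ndufv1, Sdha and Atp5b.

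Ndufv1, which carries the flavin that oxidises NADH, was 0.40 ± 0.08 higher in KO and 0.39 ± 0.07 higher in WT on the log2 scale. Sdha, the flavoprotein that oxidises succinate, had 448, 456, 487, 502 and 515 CPM in KO IP, against 342, 341, 412, 404 and 357 CPM in KO input, and a log2 fold change of 0.38 ± 0.07 in KO and 0.37 ± 0.06 in WT. Its partner Sdhb, the iron-sulfur subunit, was at 0.04 ± 0.10 in KO and -0.07 ± 0.09 in WT and passed no test. Uqcrc1, a core protein of complex III, was at 0.32 ± 0.10 in KO and 0.36 ± 0.09 in WT, but without KO animal 2 its KO value of 0.24 did not pass. The second core protein, Uqcrc2, passed in KO (0.31 ± 0.09) and not in WT (0.14 ± 0.08), and it lost the KO call without the 4 animals with cortical markers (0.31). Ndufa9, an accessory subunit, passed in WT (0.25 ± 0.08) and not in KO (0.15 ± 0.09), and it lost the WT call without WT animal 4 (0.21). The genotype difference of these 2 pulldown ratios did not pass (interaction -0.10 ± 0.12 for Ndufa9 and 0.17 ± 0.12 for Uqcrc2, edgeR unadjusted p = 0.396 and 0.167).

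Within complex I, the 7 core subunits had a median log2 fold change of 0.06 in KO and -0.05 in WT, with 2 genes higher and 0 lower in each genotype. The 29 accessory subunits had a median of -0.24 in KO and -0.26 in WT, with 12 lower in KO, 18 lower in WT, and 1 higher in WT alone (Ndufa9). Ndufb9, an accessory subunit of the membrane arm, was at -0.61 ± 0.09 in KO and -0.65 ± 0.09 in WT (edgeR adjusted p = 4.91e-06 and 4.03e-07). Ndufa3, another accessory subunit, had 70.9, 57.9, 49.0, 68.0 and 62.5 CPM in KO IP, against 95.3, 86.3, 71.9, 110 and 113 CPM in KO input, and its log2 fold change was -0.63 ± 0.13 in KO and -0.52 ± 0.11 in WT. In complex III, the hinge protein gene Uqcrh was at -0.46 ± 0.10 in KO and -0.49 ± 0.09 in WT, and Uqcr10, another small subunit, at -0.44 ± 0.14 in KO and -0.51 ± 0.13 in WT.

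Complex IV had no gene above 0 in either genotype. Of its 11 widely expressed subunits, 8 were lower in KO and 8 in WT, with a median of -0.33 in KO and -0.34 in WT. Cox7a2l, a factor that joins complexes III and IV into supercomplexes, had 93.7, 92.6, 72.2, 85.1 and 91.3 CPM in KO IP, against 136, 137, 139, 151 and 157 CPM in KO input. In WT animals its lowest, median and highest were 53.2, 74.8 and 93.2 CPM in IP, against 113, 125 and 129 CPM in input. The IP and input libraries did not overlap in either genotype, and the log2 fold change was -0.73 ± 0.10 in KO and -0.77 ± 0.09 in WT (adjusted p = 1.49e-06 and 1.31e-07). Cox4i1, the widely expressed form of the subunit Cox4, was at -0.63 ± 0.10 in KO and -0.62 ± 0.09 in WT, Cox7c, a small subunit, at -0.68 ± 0.11 in KO and -0.45 ± 0.10 in WT, and Cox6a1 at -0.47 ± 0.08 in KO and -0.46 ± 0.07 in WT.

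Complex V held calls in both directions, also within its catalytic part. Atp5a1 was higher, as given above, while the epsilon subunit gene Atp5e, of the central stalk, was lower. It had 116, 102, 50.8, 94.3 and 98.2 CPM in KO IP, against 180, 141, 116, 181 and 168 CPM in KO input, with a log2 fold change of -0.77 ± 0.16 in KO and -0.67 ± 0.15 in WT. KO animal 9 had the lowest IP value. Atp5mpl, a small subunit of the membrane part, was at -0.68 ± 0.12 in KO and -0.61 ± 0.11 in WT, and Atp5j, of the peripheral stalk, at -0.52 ± 0.07 in KO and -0.63 ± 0.07 in WT. The 3 genes for the same subunit of the proton-carrying ring differed. Atp5g1 was at 0.07 ± 0.09 in KO and 0.05 ± 0.08 in WT and passed no test. Atp5g2 was lower in both genotypes, at -0.60 ± 0.18 in KO and -0.47 ± 0.17 in WT, and Atp5g3 was lower in WT (-0.29 ± 0.07) and at -0.19 ± 0.08 in KO, where its edgeR adjusted p was 0.0575, or 0.0230 with the animal as a block, and where it also passed with DESeq2 (-0.23) and limma-voom (-0.20). The WT call of Atp5g2 was lost under several alternatives, among them without the 4 animals with cortical markers (-0.45).

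**Figure D3:**
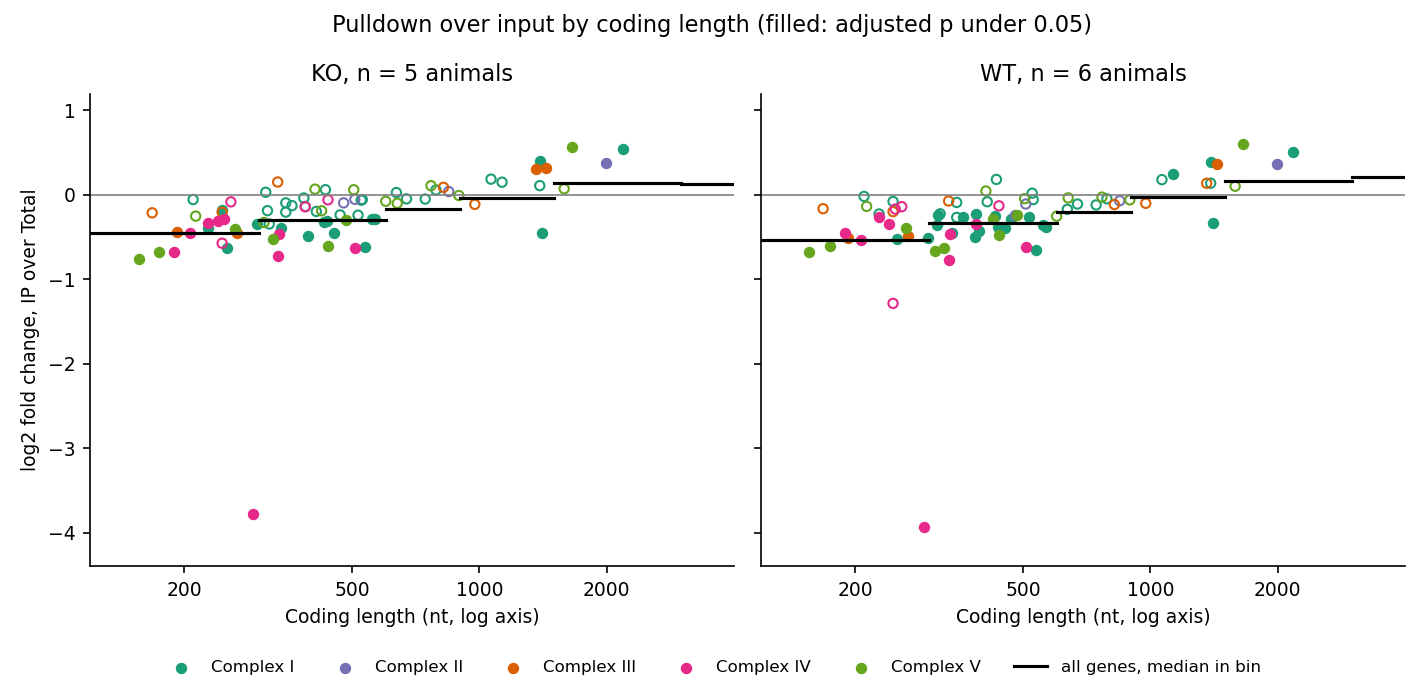
log2 fold change of IP over input (vertical axis) against coding length in nt (log axis) for the subunit genes that passed the filter in the pulldown and have a coding length, in KO animals (left) and WT animals (right). Filled points have an adjusted p under 0.05, colours give the complex, and black steps are the median of all genes in each length bin, which is higher in each longer bin up to 3000 nt.

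The subunit genes are short. Their median coding length was 409.5 nt, against 1401 nt for 14051 protein-coding genes tested, and 65 of 86 had at most 600 nt. Across the 80 genes with a coding length that passed in the pulldown, Spearman's rho between coding length and the log2 fold change of IP over input was 0.638 in KO and 0.588 in WT, as a description across genes that share libraries. Across all genes tested it was 0.211 in KO and 0.252 in WT. Of genes with at most 300 nt, 19 of 25 subunit genes were lower in KO and 16 of 25 in WT, against 52.4% in KO and 59.6% in WT of all 307 genes of that length. The counts by length hold the 5 genes that passed only through the input. Of genes with over 300 and up to 600 nt, 15 of 39 subunit genes were lower in KO and 26 of 39 in WT, against 38.2% in KO and 42.2% in WT of all 1544 genes. Above 1500 and up to 3000 nt, 3 of 4 subunit genes were higher in each genotype, against 33.6% of all 4449 genes in KO and 35.9% in WT. The part of length in the pulldown ratios was not tested.

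KO was then compared with WT within the pulldown, which asks whether the Fmr1 mutation moves these mRNAs on D1 ribosomes. Nearly all subunit genes lay slightly above WT, and none passed the adjusted threshold. With edgeR, 0 of 83 genes passed, against 0.0553% of all 14456 genes (8 genes, all lower in KO). At an unadjusted p under 0.05, 22 of 83 were higher and 0 lower, against 3.11% and 4.51% of all genes. With 1 animal left out, 13 (without KO animal 3) to 33 (without KO animal 9) had such a p, and 14 without WT animal 13. The shares of all genes in these 3 fits were 6.54%, 7.18% and 6.34%, in that order. The log2 fold change was above 0 for 77 of 83, against 50.7% of all genes, with a median of 0.13, against 0.00 over all genes. This count, like those by complex and in the input, is a description across genes that share libraries. The mean log2 CPM of the 83 genes by library ran from 6.12 (animal 9) to 6.33 in KO IP. In WT IP it ran from 5.97 to 6.33 (animal 1), so the groups overlapped. DESeq2 called 2 of the genes, Ndufb9 and Cox6a1, and limma-voom 0. The authors' deposited table for the pulldown lists the same 2 genes at an adjusted p under 0.05, where 0.752% of all genes with a value were. Its log2 values for them, before shrinkage towards 0, equal those of the DESeq2 fit in size. Its adjusted p was 0.0201 for Ndufb9 and 0.0330 for Cox6a1, against 0.0285 and 0.0434 in the DESeq2 fit made here. The deposited table comes from the same counts, and the submitters' notes name DESeq2, so it is not separate evidence. Without the 4 animals with cortical markers, 81 of 83 lay above 0, with a median of 0.21. In that fit 29 had an unadjusted p under 0.05, against 7.92% of all genes, and 0 passed the adjusted threshold.

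By complex, the median log2 fold change in the pulldown was 0.11 for complex I (34 of 39 above 0), 0.13 for complex II (4 of 4), 0.19 for complex III (9 of 9), 0.27 for complex IV (14 of 14) and 0.12 for complex V (16 of 17). Without the 4 animals with cortical markers the medians were 0.20 for complex I, 0.20 for complex II, 0.21 for complex III, 0.32 for complex IV and 0.20 for complex V. In complex I, Ndufb9 had 162, 187, 144, 167 and 170 CPM in KO IP, against a lowest, median and highest of 109, 131 and 146 CPM in WT IP. KO animal 9 alone fell inside the WT range, and the log2 fold change was 0.36 ± 0.08 (edgeR unadjusted p = 0.000391, adjusted p = 0.176). Ndufc2 and Ndufb3, accessory subunits of the membrane arm, were at 0.29 ± 0.10 and 0.28 ± 0.10. Ndufs1, the core subunit enriched in the pulldown, was at -0.01 ± 0.06. Ndufb9 lies on chromosome 15 (58933756 to 58939488, plus strand, mm10), and 19.5% of its exon bases are shared with another gene.

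In complex II, Sdhb had 135, 111, 110, 118 and 107 CPM in KO IP, against a lowest, median and highest of 85.4, 98.1 and 121 CPM in WT IP, so that the groups overlapped, and its log2 fold change was 0.23 ± 0.09 (adjusted p = 0.604). Sdha was at 0.06 ± 0.06. In complex III, Uqcrh had 179, 201, 148, 188 and 179 CPM in KO IP, against a lowest, median and highest of 120, 137 and 174 CPM in WT IP, with a log2 fold change of 0.35 ± 0.09 (adjusted p = 0.271). Uqcrh lies on chromosome 4 (116066965 to 116075071, minus strand). Uqcrq, another small subunit, was at 0.21 ± 0.09 and the Rieske iron-sulfur protein gene Uqcrfs1 at 0.21 ± 0.09.

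In complex IV all 11 widely expressed subunits lay above 0, with a median of 0.24 and 6 at an unadjusted p under 0.05. Of all genes, 3.11% were higher at such a p. Cox6a1 had 304, 277, 265, 328 and 281 CPM in KO IP, against a lowest, median and highest of 215, 240 and 266 CPM in WT IP. Only the lowest KO library fell inside the WT range, and the log2 fold change was 0.28 ± 0.07 (adjusted p = 0.220). Cox5b, which binds zinc, was at 0.30 ± 0.09 and Cox4i1 at 0.29 ± 0.10. In complex V, Atp5f1, a peripheral stalk subunit, was the 1 subunit gene whose KO IP libraries (286, 301, 285, 277 and 305 CPM) all lay above the WT IP libraries (241, 259 and 276 CPM lowest, median and highest), where 0.27% of all genes did so. Its log2 fold change was 0.17 ± 0.06 (adjusted p = 0.521). Atp5b, the beta subunit of the catalytic head, was at 0.16 ± 0.05, and Atp5a1 at -0.01 ± 0.05.

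**Figure D4:**
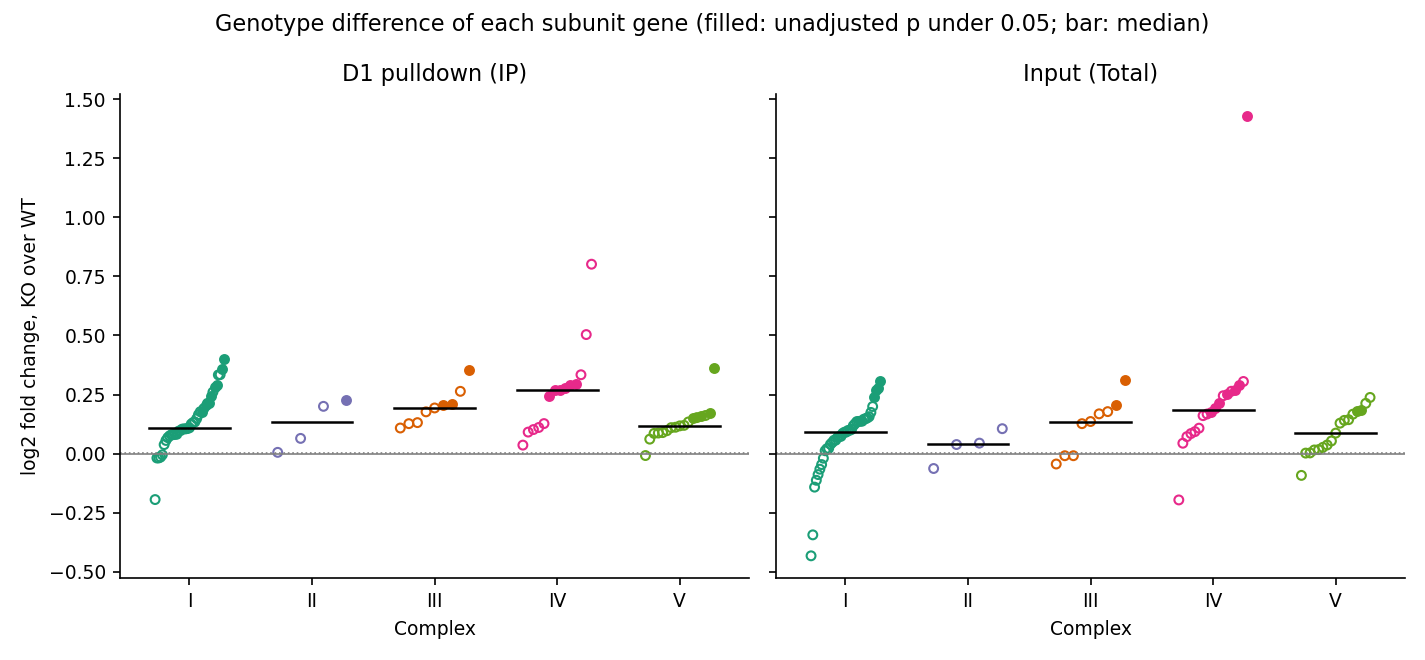
log2 fold change of KO over WT (vertical axis) of each subunit gene by complex, in the pulldown (left) and in the input (right). Filled points have an unadjusted p under 0.05, bars are medians over the genes tested and the dotted line is the median of all genes, and most points lie above 0 in both panels.

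The same comparison in the input asks whether the difference is already in whole striatal lysate. Most subunit genes lay above WT there too, and none passed the adjusted threshold. With edgeR, 0 of 88 genes passed, against 0.0183% of all 16429 genes (3 genes, all lower in KO), and DESeq2 and limma-voom called 0 of them. At an unadjusted p under 0.05, 15 of 88 were higher and 0 lower, against 3.16% and 3.68% of all genes. With 1 animal left out, 9 (without KO animal 10 or WT animal 13) to 27 (without WT animal 12) had such a p. Of all genes, 5.59% had one without KO animal 10, 6.04% without WT animal 13 and 8.88% without WT animal 12. Of the 83 genes that passed in the pulldown, 71 lay above 0, against 50.5% of all genes, with a median of 0.10, or 0.066 without WT animal 13. Without the 4 animals with cortical markers the median was 0.24 and 77 lay above 0. In that fit 39 of 88 had an unadjusted p under 0.05, against 10.8% of all genes. In the authors' deposited table for the input, 0 of the genes had an adjusted p under 0.05 and the smallest was 0.092, of Ndufa4. Over the same 83 genes the medians by complex were 0.09 for complex I, 0.04 for complex II, 0.14 for complex III, 0.18 for complex IV and 0.09 for complex V. Without the 4 animals they were 0.20 for complex I, 0.10 for complex II, 0.26 for complex III, 0.27 for complex IV and 0.19 for complex V.

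Ndufa4 had the smallest p of the subunit genes in the input. It had 376, 358, 362, 402 and 390 CPM in KO input, against a lowest, median and highest of 280, 309 and 360 CPM in WT input, with a log2 fold change of 0.27 ± 0.08 (edgeR adjusted p = 0.456). Ndufb9 had 245, 238, 253, 266 and 266 CPM in KO input, against 177, 199 and 258 CPM lowest, median and highest in WT input, and was at 0.31 ± 0.09. Uqcrh was at 0.31 ± 0.09, Cox4i1 at 0.29 ± 0.09 and Cox6a1 at 0.27 ± 0.09. In 2 genes every KO input library lay above every WT input library, where 0.268% of all genes did so. Cox7a2l had 136 to 157 CPM in KO input, against 113 to 129 CPM in WT input. Atp5b had 971, 995, 1017, 1111 and 966 CPM in KO input, against 860, 895 and 922 CPM lowest, median and highest in WT input. The largest difference, 1.43 ± 0.64 for Cox4i2, rests on 2 to 56 reads per KO library and 4 to 18 per WT library (adjusted p = 0.685).

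**Figure D5:**
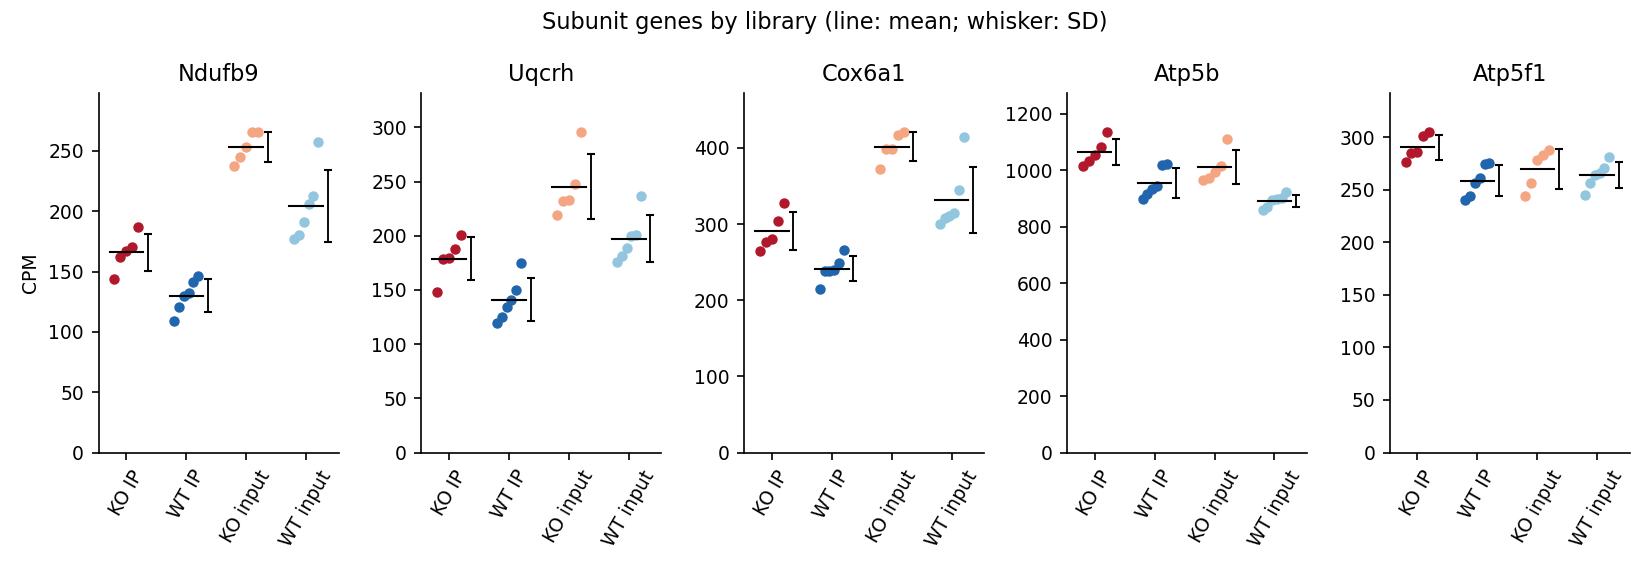
CPM (vertical axis) of Ndufb9, Uqcrh, Cox6a1, Atp5b and Atp5f1 by library in KO IP, WT IP, KO input and WT input, with a line at the mean and a whisker of 1 SD. KO means lie above WT means in IP for all 5 genes, while the KO and WT input libraries of Atp5f1 overlap.

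No marker of a cell type was called between KO and WT. In the pulldown, 9 of 9 cortical excitatory markers lay above 0 (median 0.44), 8 of 9 interneuron markers (0.61), 7 of 9 astrocyte markers (0.36), 9 of 10 oligodendrocyte markers (0.31), 4 of 5 endothelial markers (0.41), 4 of 6 D2 markers (0.10) and 2 of 3 red blood cell markers (0.14). Markers lay more often below 0 for D1 neurons (3 of 10 above 0, median -0.08), microglia (3 of 7, -0.17), mural cells and fibroblasts (1 of 4, -0.34) and ependyma and choroid plexus (0 of 4, -0.76). In the input, 8 of 8 cortical excitatory markers lay above 0 (median 0.59), 8 of 10 astrocyte (0.20), 9 of 10 oligodendrocyte (0.12), 7 of 9 interneuron (0.12), 0 of 10 D1 (-0.27) and 0 of 6 D2 markers (-0.13). The remaining lists in the input were microglia (4 of 10, -0.09), endothelium (3 of 8, -0.08), mural cells and fibroblasts (5 of 10, -0.20), ependyma and choroid plexus (4 of 7, 0.32) and red blood cells (4 of 5, 0.26). Their part in the genotype difference of the subunit genes was not tested, apart from the values without the 4 animals given above.

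Short genes as a whole lay above 0 in the same comparison. In the pulldown, all 268 genes with at most 300 nt of coding sequence had a median log2 fold change of KO over WT of 0.14, and the 21 subunit genes among them 0.11. For over 300 and up to 600 nt the median was 0.07 over all 1347 genes and 0.15 over the 38 subunit genes, and for over 600 and up to 900 nt it was 0.05 over all 1635 genes and 0.15 over the 9 subunit genes. In the input the medians were 0.10 over all genes and 0.17 over 25 subunit genes with at most 300 nt, and 0.05 over all genes and 0.10 over 39 subunit genes with over 300 and up to 600 nt. The part of length in the genotype difference was not tested.

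Whether the genotype difference itself differs between pulldown and input was tested as an interaction. No gene of the 17311 tested passed with edgeR, and the subunit genes had a median of 0.03 over the 83 that passed in the pulldown. With 1 animal left out that median ran from -0.0021 (without WT animal 12) to 0.059 (without KO animal 9), so its sign was not stable. At an unadjusted p under 0.05, 1 of 89 subunit genes was higher and 0 lower, against 1.95% and 2.15% of all genes. DESeq2 called 3 genes over the whole table and 0 subunit genes. The 1 gene was Ndufb3, with 76.6, 64.6, 64.1, 73.7 and 69.8 CPM in KO IP and 45.4, 58.2 and 68.5 CPM lowest, median and highest in WT IP. In the input it had 59.3 to 74.6 CPM in KO and 62.5 to 85.4 CPM in WT. The interaction was 0.39 ± 0.14 on the log2 scale (edgeR unadjusted p = 0.00838). Of the other genes named above, Ndufb9 was at 0.04 ± 0.13, Uqcrh at 0.03 ± 0.14, Cox6a1 at 0.00 ± 0.11, Cox7c at -0.23 ± 0.14 and Atp5f1 at 0.14 ± 0.09.

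Other genes of mitochondrial respiration were read from the same fits. Of the 17 genes of the citric acid cycle and pyruvate dehydrogenase, which feed electrons to the chain, 13 were higher in KO IP than in KO input and 14 in WT, and their median log2 ratio was 0.37 in KO and 0.33 in WT. One, Suclg2, was lower in both, at -3.22 ± 0.41 in KO and -4.10 ± 0.40 in WT. Suclg2 encodes the GTP-forming subunit of succinyl-CoA ligase, and it is named here after its values were seen. Its ATP-forming counterpart Sucla2 was higher, at 0.40 ± 0.08 in KO and 0.44 ± 0.07 in WT. Of 43 assembly factors of the complexes, 6 were higher and 6 lower in KO and 5 higher and 7 lower in WT, shares below those of all genes given above (20.9% higher and 26.4% lower in KO, 21.8% and 27.8% in WT). All 12 mitochondrially encoded mRNAs that were tested were lower in the pulldown, with a median of -4.71 in KO and -4.16 in WT. They are translated inside the mitochondrion on other ribosomes.

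For KO over WT, no gene of these lists passed in the pulldown or in the input, and the medians in the pulldown were 0.06 for the 17 citric acid cycle and pyruvate dehydrogenase genes (16 above 0), 0.08 for 42 assembly factors (30 above 0), 0.10 for 15 genes of mobile carriers and the ATPase inhibitor (11 above 0) and -0.10 for 13 regulators of mitochondrial biogenesis (4 above 0). The regulators include Ppargc1a, Nrf1, Gabpa and Tfam. In the pulldown relative to input, 2 regulators were higher in KO (Ppargc1b and Yy1) and 1 lower (Esrra), and 3 were higher in WT (Ppargc1b, Yy1 and Polrmt) and 0 lower. Ppargc1b, a coactivator, was at 0.56 ± 0.18 in KO and 0.81 ± 0.16 in WT, and Yy1 at 0.44 ± 0.09 in KO and 0.53 ± 0.08 in WT. Of the carrier genes, 2 were higher in KO (Coq8a and Coq10b) and 1 lower (Pdss2), and 1 was higher in WT (Coq8a) and 2 lower (Coq9 and Pdss1). Beside these counts, 20.9% of all genes were higher and 26.4% lower in KO, and 21.8% were higher and 27.8% lower in WT. Genes of these 2 lists are named after their values were seen.

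Counting can split reads among near-identical copies. Of 86 genes searched, 30 had a stretch of at least 100 bp at 95% identity or more in another gene's transcript, and Atp5o, Ndufa13 and Ndufb6 share over 20% of their exon bases with an overlapping gene, so their levels are uncertain. The kit does not mark the strand.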

How the data were processed

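Per the labels' protocols, polyadenylated RNA of striatal lysate and of EGFP pulldowns was sequenced from the same 5 KO and 6 WT animals. The authors deposited whole-number counts for each gene symbol, and the submitters' processing notes name STAR, featureCounts and mm10 without versions. In the tables of comparisons that the authors deposited, the log2 columns give WT over KO and stand beside a p-value and its adjusted form, and the notes name DESeq2. Only sentences that name them use them. No other column of per-sample values was left over (0).

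Counts were tested with edgeR 4.0.16 in R 4.3.3 (filterByExpr, TMM scaling, robust quasi-likelihood fit, Benjamini-Hochberg adjustment over all genes, adjusted p under 0.05). Genotype was fitted within each assay (11 libraries), IP over Total and the interaction over all 22 libraries. The alternatives used limma 3.58.1 (voom), DESeq2 1.42.0, other scalings and filters, and left-out animals. CPM used TMM over all 22 libraries, and log2 CPM a prior count of 2. The fits were tested on simulated data. Positions and coding lengths are from GENCODE vM21, and copies were searched with BLAST 2.17.0.

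The members and lists were chosen with earlier results of these data known. Named genes are Fmr1, the 3 smallest p per complex in the genotype comparisons and the interaction, the 3 highest and 3 lowest pulldown ratios per complex at a mean of at least 10 CPM, isoform genes, the 3 highest and lowest per length, and genes left out by the filter. The other named genes (Ndufs1 and Atp5a1 for KO over WT, genes whose call the animal block changed and list genes where they are set beside these) were chosen after their values were seen. IP and Total libraries with the same number come from the same lysate, and each animal's IP correlated best with its own Total (r of 0.115 to 0.243, deviations from group means).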

Additional observations from a re-analysis of the deposited data

Results flagged for a closer look

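In all, 10 groups of values held a library far from the others by Dixon's criterion, of 108 examined, and chance marks about 1 in 20 groups. In KO IP, animal 9 was lowest for complex I (mean log2 CPM 5.78, other animals 6.01 to 6.06) and for complex V (6.63, other animals 6.90 to 6.99). The mitochondrial rRNA share of that library was 0.904%, and its part in these values was not tested. Ndufs1 was lowest in the WT input of animal 12 (91.8 CPM, other animals 105 to 112), and Uqcrc1 highest in the KO input of animal 10 (109 CPM, other animals 91.3 to 96.2).

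The other groups were of muscle and testis isoforms at a few reads per library. Cox7a1 was at 0.181 CPM in the WT IP of animal 12 (other animals 0 to 0.0466). Cox8b was at 0.0293 CPM in the KO IP of animal 10, with 0 in the other KO IP libraries. In WT animal 20 it was at 0.372 CPM in IP (other animals 0 to 0.0466) and at 1.35 CPM in input (other animals 0.0397 to 0.460). Cox6b2 was at 0.257 CPM in the KO IP of animal 3 (other animals 0 to 0.0693) and at 0.148 CPM in the WT IP of animal 13 (other animals 0 to 0.0338).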

How the results depend on the processing

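Over all genes, KO against WT in IP gave 8 calls with edgeR, 83 with DESeq2 (2 of them subunit genes), 5 with limma-voom and 4 to 8 with 1 animal left out. In input it gave 3 calls, 5 with no filter on low counts, 52 with DESeq2, 7 without animals 1, 3, 9 and 12, and 2 to 7 with 1 animal left out (7 without animal 12). The median of the subunit genes in input was 0.10, and 0.24 without those 4 animals. The interaction gave 0 calls, 3 with DESeq2 and 0 to 2 with 1 animal left out (2 without animal 1 or animal 3). With the animal as a replicate block, 7 subunit genes were higher and 41 lower in KO IP than in KO input, and 8 higher and 47 lower in WT. These counts hold the 5 genes that passed the filter only through the input. At an unadjusted p under 0.05 in that edgeR fit, 50 of 89 subunit genes differed in KO and 62 in WT, against 56.4% and 58.3% of all genes. Over all subunit genes tested the block ended 0 calls and added 7 in KO (Atp5g3, Atp5k, Ndufa8, Ndufa10, Ndufab1, Uqcr11 and Uqcrq) and 6 in WT (Cox7b2, Ndufa10, Ndufa13, Ndufc1, Ndufs6 and Uqcrq). Signs turned for values near 0 or at few reads, none of them called; the cause was not tested. For KO over WT in IP, Cox6a2 was at -0.49 with limma-voom and -0.13 to 0.83 with 1 animal left out. For KO over WT in input, Cox7b2 was at -0.26 with limma-voom, and without the 4 animals Cox8b was at -0.000339 and Sdhc at 0.11. With 1 animal left out the same comparison ran from -0.034 to 0.035 for Atp5g3, -0.13 to 0.72 for Cox6b2, -0.41 to 0.27 for Cox7a1, -0.90 to 0.32 for Cox7b2, -0.30 to 0.29 for Cox8b and -0.15 to 0.047 for Sdhc. For KO IP over KO input, Sdhb was at -0.00467 with RLE size factors and -0.00402 with DESeq2, and with 1 animal left out Cox5a ran from -0.10 to 0.0036, Cox7b2 from -1.02 to 0.38 and Sdhc from -0.10 to 0.0051. For WT IP over WT input, Atp5g1 was at -0.042 without the 4 animals, and Sdhb ran from -0.12 to 0.0027 with 1 animal left out. Isoforms with a few reads per library are limited by depth, most of all in the WT IP of animal 12 with 9375611 reads.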
